A study of Rattus norvegicus with 6 samples.

Results

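The genes described here encode chemokines, interleukins and tumor necrosis factor (TNF) family ligands together with their receptors, measured in cultured vascular smooth muscle (VSM) cells of young and old rats. Members were the genes whose symbol begins with Ccl, Cxcl, Ccr, Cxcr, Ackr, Il, Tnfsf or Tnfrsf followed by a digit, together with Cx3cl1, Lif, Lifr, Osmr, Il6st, Csf1 and Tnf. This rule found 74 of the 14475 genes in the table, and no measured value entered it. Of these, 15 were chemokine ligands, 4 chemokine receptors, 10 interleukins, 24 receptors of the interleukin and interleukin-6 families, 5 TNF superfamily ligands, 12 TNF receptor superfamily members, 2 other ligands (Lif and Csf1) and 2 an interleukin-binding protein and an enzyme (Il18bp and Il4i1). Tnf itself and Il11 were not among the rows and were not analysed here.

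VSM cells were grown from the soleus feed artery (SFA), a resistance artery that supplies the soleus muscle, of male Fischer (F344) rats aged 4 months (young) or 24 months (old). Each age had 3 libraries of polyadenylated RNA, and no group carried an engineered allele or a drug treatment. Both ages were cultured in medium with fetal bovine serum, and the passage was not given in the sources used here. The methods state 3 rats per age, while the labels do not say which rat each library came from. Counts on genes totalled 44235674 to 59700887 per library, of which the members took 0.532% to 1.05%. Cultured cells carry the response to plating and serum as well as the age of the donor, and these cannot be told apart here.

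Chemokines are small secreted proteins that attract leukocytes through G protein-coupled receptors, while atypical receptors bind them and remove them. Interleukin-6 family cytokines act through receptor complexes that share the signalling subunit Il6st and activate JAK and STAT proteins. Interleukin-1 and TNF family receptors lead to the transcription factor NF-kB, which in VSM cells is known to switch on Ccl2, Il6 and neutrophil-attracting chemokines.

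All 10 VSM markers examined, among them the contractile genes Acta2, Myh11 and Cnn1, were present in both ages. Their summed level was 14174 to 25308 CPM (counts scaled to a library of 1000000) in young and 4394 to 6969 CPM in old libraries, and DESeq2 called 8 of the 10 lower in old cells. Of 21 macrophage and leukocyte markers, 5 were in the table, with a summed level of 6.13 to 18.5 CPM in young and 12.1 to 18.1 CPM in old, and Ptprc, Adgre1, Itgam, Aif1 and Tyrobp were not among the rows. Endothelial markers were present for 7 of 12 genes at 36.1 to 45.4 CPM in young and 33.0 to 44.4 CPM in old, without Cdh5, Cldn5 and Nos3. For fibroblast markers, 13 of 14 were present at 2585 to 2655 CPM in young and 3202 to 3978 CPM in old, and DESeq2 called 4 of them (Clec3b, Col14a1, Dcn and Dpp4) higher in old. Dpp4 averaged only 0.0431 CPM in young and 0.806 CPM in old. It reached the 10 counts needed to enter the table in the 3 old libraries only. That its old libraries lay above its young ones was thus fixed by this filter. Of the 13, 10 were higher and 3 lower in old. The lower ones averaged 1269 CPM in young and 1123 CPM in old (Thy1), 607 and 544 CPM (Mfap5) and 245 and 208 CPM (Gsn), and were not called. Schwann cell markers (4 of 8 present) summed to 13.7 to 75.7 CPM in young and 55.1 to 86.6 CPM in old, and skeletal muscle markers (5 of 11) to 175 to 393 CPM in young and 38.6 to 66.9 CPM in old. Of the skeletal muscle markers, 1 was higher and 4 lower in old, and DESeq2 called Acta1, Myh1 and Myh2 lower. Of the endothelial markers, 3 were higher and 4 lower, and DESeq2 called Erg lower. It called 0 of the macrophage and leukocyte or Schwann cell markers. Of all genes, DESeq2 called 2.25% higher and 3.31% lower in old. In such bulk samples, fewer cells of a type and less RNA per cell cannot be told apart. The part of these marker shifts in the results that follow was not tested.

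The comparison of old with young VSM cells asks how cytokine and receptor expression differed with the age of the rat. The differences that stood out most from the spread between libraries were those of receptors. Il6st, the signal-transducing subunit of the interleukin-6 family, and Ackr3, an atypical receptor of Cxcl12, were higher in old cells in every library. Il1rl1, the interleukin-33 receptor also known as ST2, and Tnfrsf11b, the secreted decoy receptor osteoprotegerin, were lower in every old library. Most chemokine ligands and Il6, in contrast, varied more between cultures of the same age than between ages.

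Differences are given as log2 fold changes of old over young with their standard error (SE), so that positive values are higher in old cells. A gene was called when the p-value adjusted over all genes by the Benjamini-Hochberg method was under 0.05 and the log2 fold change was at least 1 in either direction. By edgeR's quasi-likelihood test with all 6 libraries, 0 of 74 members were called, against 0.00691% of all genes, and 4 passed at an adjusted p under 0.1, against 2.63% of all genes. DESeq2 called 9 members, 4 higher (background 2.25%) and 5 lower (3.31%), which is 12.2% of the members against 5.56% of all genes, and limma-voom called 0 members and 0 genes of the whole table. At an unadjusted edgeR p under 0.05 stood 9 members higher in old (background 11.2%) and 10 lower (11.5%), or 25.7% of members against 22.6% of all genes. The libraries of the ages did not overlap for 7 members with old above young (background 14.5%) and 8 with old below young (14.7%), a share of 20.3% that was below the 29.2% of all genes. Among the 8 was Cx3cl1, whose order was fixed by the filter of 10 counts in 3 or more libraries. The median log2 fold change was 0.22 over the members and 0.02 over all genes, with 42 members higher and 32 lower (52% of all genes were higher), and the median was -0.05 without old replicate 2. With 3 libraries per age, an exact two-sided permutation test of a single gene cannot give a p below 0.1.

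Leaving out old replicate 1 brought 5 members under the edgeR threshold, where 5.06% of all genes passed. They were 2 higher (background 1.58%) and 3 lower (3.47%), namely Il6st (adjusted p = 0.0293), Il1rl1 (0.0405), Tnfrsf11b (0.0262), Ackr3 (0.0356) and Tnfrsf12a (0.0262). DESeq2 with a library left out called 11, 5 and 7 members without old replicates 1, 2 and 3, where 9.51%, 4.24% and 4.5% of all genes were called. Without young replicates 1, 2 and 3 it called 13, 6 and 7 members, where 5.09%, 3.81% and 4.15% of all genes were called. Il6st, Il1rl1, Tnfrsf11b and Ackr3 were called in 6 of these 6 fits. Il1rap and Tnfrsf12a were called in 3 of the 6 and Tnfrsf1b, Tnfrsf21 and Lif in 2. The 9 members that DESeq2 called therefore divide into 4 whose DESeq2 call did not depend on any single library and 5 whose call did. The share of all called genes that kept their call in this way was not counted. In edgeR at the same threshold, members were called only when old replicate 1 was left out.

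**Figure D1:**
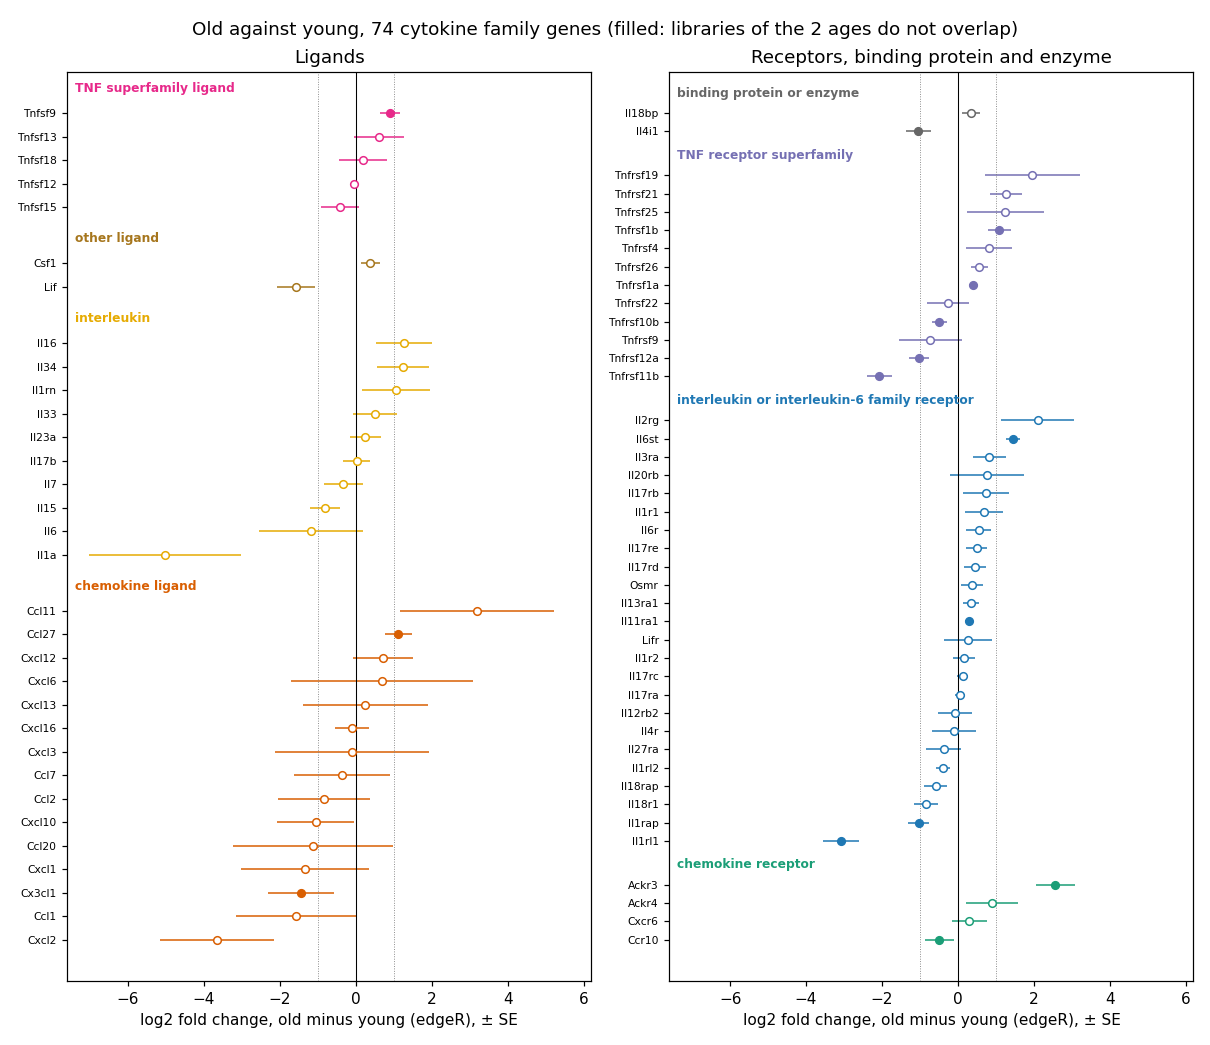
Log2 fold change of old over young VSM cells with its SE from edgeR for the 74 members, grouped by role, with filled points where the libraries of the ages did not overlap and dotted lines at -1 and 1. Il1rl1 (-3.08) and Tnfrsf11b (-2.08) lie at the lower end of the receptors and Ackr3 (2.56) at the upper end. Their error bars (SE 0.47, 0.33 and 0.52) are shorter than those of most chemokine ligands, though not the shortest among receptors. Chemokine ligands and Il1a carry the widest bars.

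Il6st had the lowest edgeR p of the members. It stood at 418, 320.2 and 395 CPM in young replicates 1, 2 and 3 and at 955, 1269 and 865 CPM in old replicates 1, 2 and 3. Every old library lay above every young library. The means were 378 ± 51.4 CPM in young and 1029.6 ± 212 CPM in old (SD, n = 3 each), which gave 1.45 as the log2 fold change (SE 0.19, edgeR adjusted p = 0.0531, DESeq2 adjusted p = 9.75e-10). Leaving out single libraries moved the edgeR fold change between 1.27 and 1.56.

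The receptors that pair with Il6st were not called. Osmr, the oncostatin M receptor, stood at 175, 179.9 and 109 CPM in young and 176, 269.5 and 154 CPM in old, a log2 difference of 0.37 (SE 0.28, edgeR adjusted p = 0.450). Lifr, the receptor of leukemia inhibitory factor, had 1.53, 1.35 and 3.05 CPM in young and 1.27, 4.67 and 1.16 CPM in old (0.26, SE 0.64). Il6r, the subunit that binds interleukin-6, had 7.33, 5.60 and 3.36 CPM in young and 8.56, 9.18 and 5.99 CPM in old (0.54, SE 0.32). For all 3 receptors the ages overlapped and the change was within 2 SE of 0. Il11ra1, which binds interleukin-11, stood at 40.4, 48.4 and 40.1 CPM in young and at 52.6, 53.2 and 52.4 CPM in old, without overlap. Its log2 fold change was small, 0.30 (SE 0.10, edgeR adjusted p = 0.173).

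Among the ligands of this family, Lif, which keeps many progenitor cells undifferentiated, was at 49.3, 52.6 and 16.3 CPM in young and 16.9, 15.4 and 7.46 CPM in old cells. Young replicate 3 lay among the old libraries, so the ages overlapped. The log2 fold change was -1.57 (SE 0.50, edgeR adjusted p = 0.157, DESeq2 adjusted p = 0.0166). Il6 itself had 160.2, 73.9 and 9.40 CPM in young and 13.5, 91.1 and 2.57 CPM in old libraries (-1.18, SE 1.36, edgeR adjusted p = 0.618), and the log2 fold change ran from -3.33 without old replicate 2 to -0.22 without young replicate 1. Its highest and lowest libraries differed 17.0-fold within young and 35.4-fold within old, more than the ages did.

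Il1rl1 showed the largest difference among the 9 members called by DESeq2. It binds interleukin-33 and signals with Il1rap, the accessory chain that interleukin-1 receptors share. Il1rl1 stood at 1940.0, 1889 and 4961 CPM in young and at 399, 237 and 401 CPM in old libraries. All old libraries were below all young ones, and young replicate 3 was far above the other two. The log2 fold change was -3.08 (SE 0.47, edgeR adjusted p = 0.0557, DESeq2 adjusted p = 2.71e-10) and -2.47 without young replicate 3. Il1rap was also lower in each old library, with 23.5, 30.5 and 46.7 CPM in young and 19.3, 16.1 and 13.7 CPM in old. Its log2 fold change was -1.04 (SE 0.27, edgeR adjusted p = 0.115, DESeq2 adjusted p = 0.00890), and -0.72 without young replicate 3, whose value was the highest here too.

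Il33, the ligand of Il1rl1 and a nuclear protein released when cells are damaged, was not called with all 6 libraries. It stood at 1680.5, 595 and 311 CPM in young and 1441, 1186 and 1048 CPM in old. Old libraries lay close together between the highest young library and the other two, and the log2 fold change was 0.51 (SE 0.58, edgeR adjusted p = 0.617). Without young replicate 1 it was 1.43, and DESeq2 then called Il33 higher in old (adjusted p = 0.000866), while without young replicate 3 it was 0.11.

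In the rat RefSeq gene table of assembly GRCr8, Il1r1, Il1rl2, Il1rl1, Il18r1 and Il18rap are consecutive coding genes, with Il1r2 close by. Il1r1, the signalling interleukin-1 receptor, was at 269.7, 168 and 87.4 CPM in young and 276, 413 and 153 CPM in old (0.68, SE 0.49, edgeR adjusted p = 0.431). Il18r1, the ligand-binding chain of the interleukin-18 receptor, was at 1.99, 2.94 and 3.99 CPM in young and 1.45, 2.00 and 1.57 CPM in old (-0.83, SE 0.32, edgeR adjusted p = 0.198), with the lowest young value just under the highest old value. The other 3 genes, named after their values were seen, had smaller differences: Il18rap, the second chain of that receptor, had a log2 fold change of -0.59 (SE 0.31), Il1rl2, the interleukin-36 receptor, of -0.40 (SE 0.18) and Il1r2, a decoy receptor, of 0.15 (SE 0.29). Of these 6 genes, DESeq2 called 1, Il1rl1, against 5.56% of all genes. It was also the 1 gene whose ages did not overlap, against 29.2% of all genes.

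The interleukin-1 ligands were also uneven between cultures. Il1a, an alarmin of the interleukin-1 family, had 43.3, 23.5 and 0 CPM in young and 1.09, 0.962 and 0 CPM in old. Both replicates numbered 3 had no count, which allows up to 0.0611 CPM in young and 0.0560 CPM in old if each count is a separate fragment, and more if both mates of a pair were counted. The ages thus overlapped. The log2 fold change was -5.03 with an SE of 2.00 (edgeR adjusted p = 0.210, DESeq2 adjusted p = 0.266), the lowest of all members. Il1rn, the secreted antagonist of the interleukin-1 receptor and chosen after its values were seen, had 114, 35.0 and 22.3 CPM in young and 225, 106 and 23.7 CPM in old (1.05, SE 0.90), which was 0.19 without old replicate 1 and 2.05 without young replicate 1.

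In the TNF receptor superfamily, DESeq2 called 2 of 12 members lower and 2 higher in old cells, against 3.31% and 2.25% of all genes. The ages did not overlap for 2 of the 12 with old above young and 3 with old below young. Of all genes, 14.5% and 14.7% did not overlap in these directions. Tnfrsf11b, which captures the bone-resorbing ligand RANKL and the death ligand TRAIL, stood at 179.7, 147 and 163 CPM in young and 56.0, 22.0 and 37.9 CPM in old. The young libraries were tightly grouped and all lay above the old ones. The means of 163 ± 16.3 and 38.6 ± 17.0 CPM (SD, n = 3 each) gave a log2 fold change of -2.08 (SE 0.33, edgeR adjusted p = 0.0574, DESeq2 adjusted p = 1.11e-07), which ranged from -2.45 to -1.80 when single libraries were left out.

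Tnfrsf12a, the receptor Fn14 for the ligand Tnfsf12 (TWEAK), stood at 191, 185 and 205 CPM in young and 137, 68.6 and 78.4 CPM in old. Old replicate 1 was closer to the young libraries than the other two old libraries were, without overlapping them. The log2 fold change was -1.03 (SE 0.26, edgeR adjusted p = 0.111, DESeq2 adjusted p = 0.00567), and -1.40 without old replicate 1. Its ligand Tnfsf12, chosen after its values were seen, was level, at 23.7, 23.1 and 22.3 CPM in young and 20.7, 22.0 and 24.3 CPM in old (-0.04, SE 0.10).

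The 2 receptors of TNF were both higher in old libraries without overlap. Tnfrsf1b, found mainly on immune and endothelial cells, was at 21.8, 12.7 and 11.2 CPM in young and 23.9, 39.2 and 33.9 CPM in old (1.09, SE 0.30, edgeR adjusted p = 0.127, DESeq2 adjusted p = 0.0135). The margin was narrow, since young replicate 1 and old replicate 1 lay side by side. Tnfrsf1a, the widely expressed receptor that carries a death domain, was at 79.5, 86.0 and 76.0 CPM in young and 98.4, 118 and 103 CPM in old, a log2 fold change of 0.41 (SE 0.11, edgeR adjusted p = 0.114) that was under the minimum fold. Tnfrsf21, another death domain receptor, was at 5.83, 3.86 and 4.11 CPM in young and 10.9, 16.9 and 5.41 CPM in old, with overlap (1.27, SE 0.42, edgeR adjusted p = 0.164, DESeq2 adjusted p = 0.0352). Without old replicate 2 its log2 fold change was 0.82.

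Tnfrsf10b, the death receptor of TRAIL, had 24.8, 26.5 and 30.4 CPM in young and 24.8, 15.8 and 17.6 CPM in old (-0.49, SE 0.19, edgeR adjusted p = 0.200). Old replicate 1 was within rounding of the lowest young library. Tnfrsf26 and Tnfrsf22, neighbouring genes of rodents chosen after their values were seen, had log2 fold changes of 0.56 (SE 0.23) and -0.27 (SE 0.55), and the ages overlapped for both.

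Of the TNF superfamily ligands, Tnfsf9, a costimulatory ligand of T cells, was at 6.65, 5.88 and 3.97 CPM in young and 10.3, 12.9 and 7.93 CPM in old. The ages did not overlap, and the log2 fold change of 0.91 (SE 0.26, edgeR adjusted p = 0.134, DESeq2 adjusted p = 0.0222) was just under the minimum fold. Tnfsf18, the ligand of the costimulatory receptor GITR, had the most counts of this class, with 48.4, 99.1 and 79.6 CPM in young and 129.6, 20.8 and 109.8 CPM in old. Old replicate 2 was the lowest of all 6 libraries and the other two old libraries the highest, which left a log2 fold change of 0.20 (SE 0.63).

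**Figure D2:**
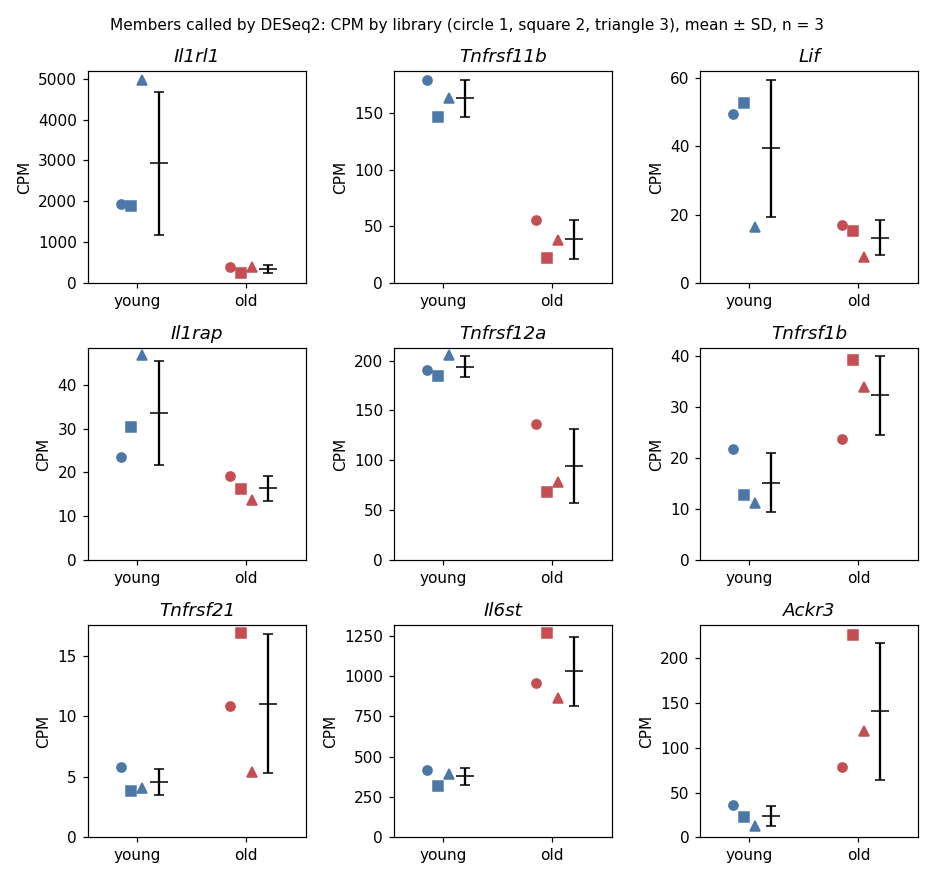
CPM (linear axes from 0, a separate scale for each gene) in each of the 3 young and 3 old libraries for the 9 members called by DESeq2, with the mean ± SD of each age as a bar. Old libraries lie wholly above young for Il6st, Ackr3 and Tnfrsf1b and wholly below for Il1rl1, Il1rap, Tnfrsf11b and Tnfrsf12a, while Lif and Tnfrsf21 overlap.

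Among the 4 chemokine receptors, DESeq2 called 1 higher, Ackr3, against 2.25% of all genes. This receptor captures Cxcl12 without G protein signalling. Ackr3 stood at 36.2, 22.6 and 13.1 CPM in young and 78.5, 226 and 118 CPM in old libraries. All old libraries were above the young ones, and old replicate 2 was the highest. The log2 fold change was 2.56 (SE 0.52, edgeR adjusted p = 0.0767, DESeq2 adjusted p = 7.19e-06), and 2.04 without old replicate 2. Its ligand Cxcl12 was at 528, 639 and 102 CPM in young and 206, 1016 and 877 CPM in old, so that young replicate 3 and old replicate 1 were both low and the ages overlapped (0.73, SE 0.79, edgeR adjusted p = 0.598). Ackr4, which scavenges CC chemokines, was at 122, 41.4 and 16.7 CPM in young and 103, 81.7 and 152 CPM in old (0.90, SE 0.68, edgeR adjusted p = 0.450). Without young replicate 1, its highest young library, DESeq2 called it (log2 fold change 1.94, adjusted p = 0.00117).

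Most chemokine ligands differed between cultures of the same age by more than the mean of the ages differed. Summed over the 15 ligands, the level was 3776, 2374 and 178 CPM in young replicates 1, 2 and 3 and 858, 3662 and 1120.3 CPM in old replicates 1, 2 and 3. Young replicate 3 was the lowest of the young libraries and old replicate 2 the highest of the old libraries for 12 of the 15 ligands, a pattern found for 32 of 74 members (43.2%) and 16.3% of all genes. It also held for 15 of the 40 receptors, among them Ackr3, Tnfrsf1a and Tnfrsf1b, but not Il6st, Il1rl1 or Tnfrsf11b. The VSM marker sum ran the other way within young, from 14174 CPM in replicate 1 to 25308 CPM in replicate 3, and the macrophage and leukocyte marker sum was lowest in young replicate 3 (6.13 CPM) and highest in young replicate 1 (18.5 CPM). Most of the latter sum was Cd14, with 13.1 CPM in young replicate 1 and 4.72 CPM in young replicate 3. In old replicates 1, 2 and 3 the sums were 6969, 4430 and 4394 CPM for VSM markers and 14.8, 18.1 and 12.1 CPM for macrophage and leukocyte markers. The part of these differences between libraries in the ligand levels was not tested.

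Ccl2 and Ccl7, neighbouring genes for chemokines that draw monocytes, had the most counts together with Cxcl12. Ccl2 stood at 1417, 773 and 35.2 CPM in young and 336, 813 and 103 CPM in old (-0.83, SE 1.21, edgeR adjusted p = 0.699). Ccl7 stood at 1239.8, 721 and 30.2 CPM in young and 278, 1144 and 127 CPM in old (-0.36, SE 1.25, edgeR adjusted p = 0.880). Both were high in young replicates 1 and 2 and in old replicate 2, and low in young replicate 3 and old replicate 3. Ccl11, the eosinophil chemokine eotaxin and the next gene along, was chosen after its values were seen. It had 2.17, 0.465 and 0 CPM in young and 0.322, 23.2 and 0.299 CPM in old, so that its log2 fold change of 3.19 (SE 2.03) rested on old replicate 2 and was -1.48 without it.

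The neutrophil-attracting ligands Cxcl1, Cxcl2, Cxcl3 and Cxcl6, grouped on chromosome 14 in GRCr8, and Ccl20, which draws cells bearing Ccr6, were also chosen after their values were seen. Cxcl1 had 263, 127 and 4.21 CPM in young and 20.1, 135 and 1.32 CPM in old (-1.33, SE 1.68). Cxcl6 had 213, 44.2 and 0.163 CPM in young and 4.38, 413 and 0.373 CPM in old (0.70, SE 2.39). The highest library exceeded the lowest 1311-fold within young and 1107-fold within old for Cxcl6, and 62.4-fold and 102-fold for Cxcl1. Cxcl3 had 47.4, 14.9 and 0.204 CPM in young and 1.21, 57.0 and 0.112 CPM in old (-0.10, SE 2.04). Ccl20 had 45.6, 28.1 and 0 CPM in young and 0.523, 33.1 and 0.149 CPM in old (-1.13, SE 2.11). All 4 were high in young replicates 1 and 2 and old replicate 2 and lower in the other 3 libraries. Cxcl2 was lower in old, with 1.06, 2.38 and 0.0407 CPM in young and 0.0402, 0.231 and 0 CPM in old (-3.66, SE 1.5, edgeR adjusted p = 0.216). The ages overlapped for it, and it stayed near the counting floor in old libraries, where replicate 3 had no count.

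Promoters of several of these ligands and of Il6 are shown as examples from the members that hold the binding motif of NF-kB. The part of this motif in the levels measured here was not tested. The NF-kB consensus of 10 bases, searched on both strands from 250 bases before to 50 bases after each start in the RefSeq promoters of GRCr8, was in 4.18% of 33469 promoters. Promoters were listed for 57 of the 74 members, and 12 of these held the consensus, among them 5 of 12 chemokine ligands (Ccl20, Cxcl1, Cxcl2, Cxcl6 and Cxcl10). The others were Il6, Il12rb2, Il1r1, Il1rap, Il27ra, Il4i1 and Il4r. A member counted when any of its listed promoters matched, whereas 4.18% is a share of single promoters. These shares are therefore not directly comparable. Cxcl10, Il12rb2, Il1rap, Il27ra and Il4i1 did not follow the pattern of the chemokine ligands. The 150 bases before the start of 4 of these ligands and of Il6 follow, with the consensus in capitals, which begins 84, 74, 88, 89 and 68 bases before the start in the order printed. Where matches on both strands overlapped, the capitals cover their union.
Cxcl1, chr14:17479322-17479471, minus strand: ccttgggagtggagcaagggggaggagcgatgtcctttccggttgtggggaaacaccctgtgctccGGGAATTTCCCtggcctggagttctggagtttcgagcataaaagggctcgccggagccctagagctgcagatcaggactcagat
Cxcl2, chr14:17467256-17467405, minus strand: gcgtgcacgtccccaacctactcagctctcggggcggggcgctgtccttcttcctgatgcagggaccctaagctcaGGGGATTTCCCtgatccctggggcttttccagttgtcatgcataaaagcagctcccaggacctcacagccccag
Cxcl6, chr14:17596418-17596567, minus strand: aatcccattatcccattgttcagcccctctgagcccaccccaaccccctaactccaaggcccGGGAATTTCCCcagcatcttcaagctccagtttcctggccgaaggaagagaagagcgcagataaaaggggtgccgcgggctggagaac
Ccl20, chr9:91837009-91837158, plus strand: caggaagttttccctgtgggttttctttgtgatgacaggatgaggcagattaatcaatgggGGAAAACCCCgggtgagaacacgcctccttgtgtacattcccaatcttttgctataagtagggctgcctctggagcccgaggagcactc
Il6, chr4:5894576-5894725, minus strand: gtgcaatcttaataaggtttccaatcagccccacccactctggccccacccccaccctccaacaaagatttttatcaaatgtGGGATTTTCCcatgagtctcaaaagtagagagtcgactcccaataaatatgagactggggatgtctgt
A match is a description of the letters and not a measured binding site. Ccl7 had no match in its window, which says only that these letters are not there, and Ccl2, Ccl11 and Cxcl3 had no entry.

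**Figure D3:**
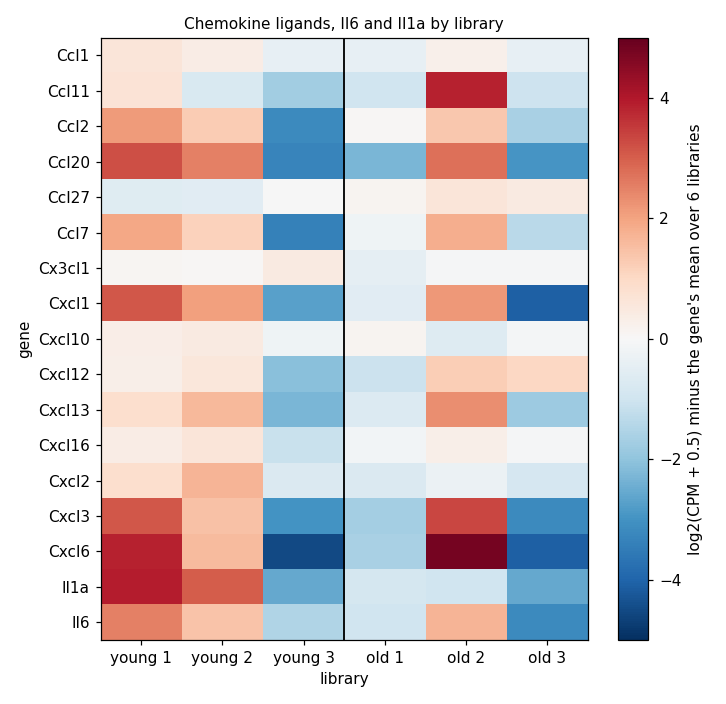
Log2(CPM + 0.5) of the 15 chemokine ligands, Il6 and Il1a in the 6 libraries, each gene minus its mean over the libraries, with red for higher and blue for lower. Young replicates 1 and 2 and old replicate 2 are high and young replicate 3 is low for most chemokine ligands, for which young replicate 3 was lowest of young and old replicate 2 highest of old in 12 of 15 cases.

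Ccl27, Cx3cl1 and Cxcl10 were the 3 ligands outside this pattern. Ccl27, a skin-type chemokine, was at 0.598, 0.632 and 1.16 CPM in young and 1.33, 2.08 and 1.81 CPM in old, without overlap (1.12, SE 0.36, edgeR adjusted p = 0.160). It overlaps Il11ra1 in the RefSeq gene table, so that reads of the 2 genes may not be separable in these counts. Cxcl16, a membrane-bound chemokine chosen after its values were seen, followed the pattern over a narrower range, at 12.7, 14.9 and 4.19 CPM in young and 8.70, 12 and 9.12 CPM in old (-0.09, SE 0.45). Cxcl13, which draws B cells and was chosen in the same way, was at 4.23, 7.60 and 0.0407 CPM in young and 1.17, 12.8 and 0.261 CPM in old (0.26, SE 1.64), again with young replicate 3 lowest and old replicate 2 highest.

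Spread between libraries of one age was measured as the SD of log2(CPM + 0.5) around the mean of each age. Its median was 2.27 for the 11 chemokine ligands that averaged above 1 CPM, 0.39 for the 19 interleukin and interleukin-6 family receptors and 0.40 for the 8 TNF receptors above that level, against 0.19 for the 12257 such genes of the table. Over all ligands, 1 of 32 was called by DESeq2 (Lif, lower) their median log2 fold change being -0.07, and over all receptors 8 of 40 were called, 4 higher and 4 lower, with a median of 0.32, beside 5.56% of all genes. The difference between ligands and receptors was not tested.

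**Figure D4:**
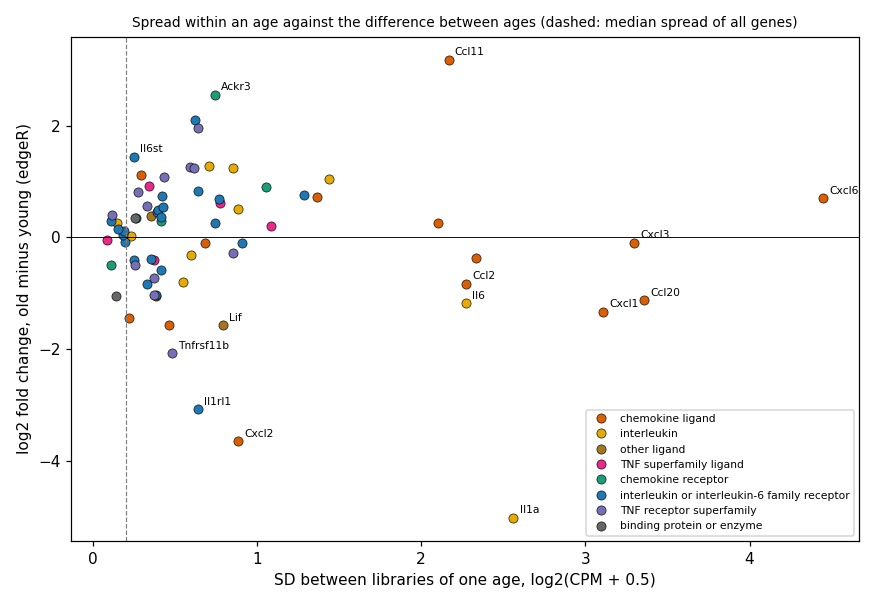
Log2 fold change of old over young from edgeR against the within-age SD of log2(CPM + 0.5) for the 74 members, colored by role, with the median spread of all genes (0.20) as a dashed line. The called receptors lie between 0.25 (Il6st) and 0.74 (Ackr3), while the chemokine ligands extend to the highest spread, with a median of 2.10 over all 15.

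Csf1, the growth factor of macrophages, was at 397, 362 and 255 CPM in young and 536, 326 and 465 CPM in old (0.39, SE 0.24, edgeR adjusted p = 0.365). Il4i1, an enzyme that oxidizes phenylalanine, was at 0.465, 0.682 and 0.733 CPM in young and 0.322, 0.327 and 0.261 CPM in old, a low level that did not overlap between ages (-1.04, SE 0.33, edgeR adjusted p = 0.153). The gene overlaps Atf5 and Nup62 in the RefSeq gene table, so that reads of these genes may not be separable. Among members chosen after their values were seen, Il15, a growth factor of natural killer cells, had a log2 fold change of -0.80 (SE 0.39) and Il34, the second ligand of the Csf1 receptor, of 1.24 (SE 0.69). Il4r and Il17ra, receptor chains for interleukin-4 and interleukin-17, had log2 fold changes of -0.10 (SE 0.58) and 0.05 (SE 0.14). The ages overlapped for all 4 of these genes.

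The remaining 26 members had log2 fold changes between -1.57 and 2.10, and the lowest edgeR adjusted p among them was 0.2495. They were the receptors Tnfrsf4, Tnfrsf9, Tnfrsf19, Tnfrsf25, Ccr10, Cxcr6, Il2rg, Il3ra, Il12rb2, Il13ra1, Il17rb, Il17rc, Il17rd, Il17re, Il20rb and Il27ra, the ligands Tnfsf13, Tnfsf15, Ccl1, Cx3cl1, Cxcl10, Il7, Il16, Il17b and Il23a, and the binding protein Il18bp. Their mean over the 6 libraries was between 0.192 and 24.2 CPM. The ages did not overlap for Cx3cl1 and Ccr10, both lower in old libraries at low counts. Cx3cl1 reached the 10 counts needed to enter the table in the 3 young libraries only. Its lack of overlap was thus fixed by this filter and is no result about age. DESeq2 gave no adjusted p for Ccl1, Cx3cl1 and the Ccl11 described above.

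Of the other genes of these pathways, 23 of 45 further ligands and receptors were in the table, 11 higher and 12 lower in old, and their median was -0.06 on the log2 scale. DESeq2 called 1 of them, Edar, against 5.56% of all genes. Edar, a TNF family receptor of skin appendages, was at 0.399, 0.0997 and 0.122 CPM in young and 0.844, 3.73 and 0.952 CPM in old (3.17, SE 0.84, edgeR adjusted p = 0.119, DESeq2 adjusted p = 0.00344). Its young values rested on 18, 6 and 6 counts. Fas and Ifnar1, chosen after their values were seen, had small fold changes with narrow errors. Fas, the death receptor, had a log2 fold change of -0.46 (SE 0.10, edgeR adjusted p = 0.0918), and Ifnar1, a chain of the type I interferon receptor, of 0.49 (SE 0.09, edgeR adjusted p = 0.0648).

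For NF-kB and TNF receptor signalling, 48 of 49 listed genes were in the table, 18 higher and 30 lower in old, with a median of -0.04. Neither edgeR nor DESeq2 called any of them, and 3 were higher and 6 lower at an unadjusted edgeR p under 0.05. Of all genes, 11.2% were higher and 11.5% lower at that p. The pattern of the chemokine ligands, with young replicate 3 lowest and old replicate 2 highest, was present in 22 of these 48 genes. Of all genes, 16.3% had this pattern. Among the 22 were Nfkbiz, an NF-kB cofactor of Il6 transcription, at 99.2, 67.0 and 8.77 CPM in young and 59.7, 123 and 18.2 CPM in old (0.20, SE 0.94), and Nfkbia, the inhibitor that NF-kB itself induces, at 26.2, 22.0 and 8.0 CPM in young and 6.69, 12.2 and 8.32 CPM in old (-1.05, SE 0.45). Traf3 and Cflar, which restrain NF-kB-inducing kinase and caspase-8, were lower in every old library, with log2 fold changes of -0.54 (SE 0.12, edgeR adjusted p = 0.0930) and -0.80 (SE 0.17, edgeR adjusted p = 0.0847). These 4 genes were chosen after their values were seen.

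For JAK-STAT signalling, which lies downstream of Il6st, 24 of 27 listed genes were in the table, 17 higher and 7 lower in old, with a median of 0.12. By edgeR and DESeq2, 0 were called, and 6 were higher and 0 lower at an unadjusted edgeR p under 0.05. Of all genes, 11.2% were higher and 11.5% lower at that p. Among genes chosen after their values were seen, Stat2, a mediator of interferon signals, had a log2 fold change of 0.58 (SE 0.13, edgeR adjusted p = 0.0900). Jak2, a kinase bound to cytokine receptors, had 0.65 (SE 0.24, edgeR adjusted p = 0.194). Socs3, the feedback inhibitor that Il6st signalling induces, was at 10.6, 8.84 and 3.75 CPM in young and 14.0, 30.8 and 5.15 CPM in old, with overlap (1.11, SE 0.67, edgeR adjusted p = 0.358).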

How the data were processed

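Stranded paired-end libraries were sequenced from polyadenylated RNA of SFA VSM cultures, 3 young and 3 old. The authors deposited raw counts per gene and library, whole numbers without normalization. Their processing notes name cutadapt 3.5, Trim Galore 0.6.7, FastQC 0.11.9, MultiQC 1.27.1, STAR 2.7.10b and featureCounts of Subread 2.0.8, and the methods name the rat assembly Rnor 6.0 with its RefSeq annotation, although the table lists Ensembl identifiers. How featureCounts treated strand, mates and reads with several hits was not given in the sources used here, and overlapping or near-identical genes are therefore uncertain. Members with values that overlap a coding gene in GRCr8 were Tnfrsf10b, Tnfrsf1b, Tnfsf12, Il4i1, Ccl27, Cxcl16, Ackr4, Il1rn, Il34, Il11ra1 and Il6r. Of the counts from 1 to 19, 68.7% to 71.1% per library were even, as when both mates of a pair are counted, which makes the counting error of low values larger than it appears. Each of the 14475 genes reached 10 counts in 3 or more libraries, so genes below that level, members of these families included, were not analysed here.

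Counts of all genes were fitted in R 4.3.3 with edgeR 4.0.16 (TMM, quasi-likelihood F test, no covariates, Benjamini-Hochberg adjustment over all genes, young as the reference). CPM values used the TMM library sizes, and each SE was the size of the log2 fold change over the root of its F statistic. The spread of a gene was computed on log2(CPM + 0.5). The same counts were also tested with DESeq2 1.42.0 (Wald test) and with voom of limma 3.58.1, and DESeq2 gave no adjusted p for 292 genes, of which 3 were members. Other size factors, a filter at 1 CPM, halved counts, the replicate number as a block, other thresholds and each library left out were tried, and DESeq2 with each library left out was added after the data were seen. The steps were tested on simulated data.

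The members, the pathway and marker lists and the rule for named genes were chosen with earlier results of these data known. Values are given for members that edgeR or DESeq2 called, the 8 other members with the smallest edgeR p, the member with the most counts in each role, and a fixed list of members central to these pathways. Other genes with values are said to have been chosen after their values were seen. Gene neighbours (74 of 74 members matched by symbol) and promoters came from RefSeq tables of assembly GRCr8. Counting floors of 3 counts cover counting error only and take each count as a separate fragment, so they are too low if mates were counted.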

Additional observations from a re-analysis of the deposited data

How the results depend on the processing

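Members called numbered 0 under RLE size factors, library size only, halved counts, the filter at 1 CPM, limma-voom and no minimum fold change, 9 by DESeq2, 4 at an edgeR adjusted p under 0.1 (2.63% of all genes) and 0 to 5 when edgeR was run with single libraries left out. DESeq2 with single libraries left out (chosen after seeing the data) called 11, 5 and 7 members without old replicates 1, 2 and 3 and 13, 6 and 7 without young replicates 1, 2 and 3, while 3.81% to 9.51% of all genes were called. Members at an unadjusted p under 0.05 numbered 10 (without young replicate 2) to 20. The median log2 fold change of the members ran from -0.05 (without old replicate 2) to 0.31, and was 0.14 with limma-voom. Deviations of same-numbered young and old libraries correlated at 0.0633, 0.312 and 0.293 over 12257 genes, and young replicate 1 correlated more with old replicate 2 (0.345) than with its own number, so the numbers were not taken as pairs. With the replicate block, 0 members were called, 24 stood at an unadjusted p under 0.05 and the median was 0.10. Of 59 named genes, 45 kept the sign of their log2 fold change in each alternative run. The sign turned in limma-voom and with the replicate block for Tnfsf18 (-0.12 and -0.044), Ccl7 (0.21 and 0.27), Cxcl16 (0.061 and 0.069) and Cxcl6 (-0.45 and -0.081). With single libraries left out, the range crossed 0 for Tnfsf18 (-0.21 to 0.66), Ccl7 (-1.71 to 0.46), Cxcl16 (-0.47 to 0.24), Cxcl6 (-5.17 to 2.66), Ccl11 (-1.48 to 5.03), Ccl2 (-1.75 to 0.050), Cxcl13 (-2.47 to 1.17), Cxcl3 (-4.98 to 1.37), Il17ra (-0.067 to 0.13), Il4r (-0.78 to 0.22), Lifr (-0.71 to 0.72), Nfkbiz (-0.58 to 0.82), Tnfrsf22 (-0.67 to 0.31) and Tnfsf12 (-0.11 to 0.0076). The cause was not tested. Without a change of sign, the range was wide for Il6 (-3.33 to -0.22), Ccl20 (-6.19 to -0.32), Cxcl1 (-3.61 to -0.33), Cxcl2 (-5.74 to -2.56), Il1a (-5.62 to -4.10), Il1rn (0.19 to 2.05), Il33 (0.11 to 1.43) and Ackr4 (0.46 to 1.95). Depth limits values of a few counts, such as those of Cxcl2 in old libraries.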
